A study of Mus musculus with 6 samples.

Results

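Complement is a cascade of plasma proteins that tags surfaces and dying cells and recruits phagocytes. C1q opens the classical pathway by binding antibody or exposed surfaces, factors B and D drive the amplification loop of the alternative pathway through C3, and factor I shuts both down by cleaving the activated C3 and C4 fragments. The liver makes most circulating components, but C1q comes mainly from macrophages and dendritic cells, and endothelial cells (ECs), fibroblasts and epithelium can make others. Of 8 complement genes considered, chosen by gene symbol for their roles in the classical and alternative pathways, 5 could be measured, out of 18194 genes on the arrays. These were C1qa, C1qb and C1qc, which encode the chains of C1q, Cfb, which encodes factor B, and Cfi, which encodes factor I. They were read by 7 probe sets, 3 of them for C1qb. C3, which encodes the central component, and Cfd, which encodes factor D, were not analysed here, as no probe set was annotated to either symbol. C4b, which encodes a C4 chain precursor, was left out because its only probe set is annotated to C4a as well.

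The levels come from ECs of the lungs of NSG mice, injected into the blood at 6 to 8 weeks of age with MDA-MB-231-LM2 cells that carried control shRNA (shControl, 3 arrays) or shRNA for TNC, the gene of the matrix protein tenascin C (shTNC, 3 arrays), and taken on day 20. All mice carried metastases of this lung-tropic derivative of a human breast cancer line, so there was no tumor-free group. The depletion was in the human cells, and no mouse gene was targeted. The study reported that TNC knockdown reduced lung colonization, so an effect of tumor load cannot be told apart from one of TNC here. NSG mice lack mature lymphocytes and antibody, the usual trigger of C1q, and descend from NOD mice, whose C5 gene Hc is inactive. ECs were sorted for CD31 after removal of cells with CD45, CD11b, EpCAM, CD140a, CD140b or GFP, and their defining genes Pecam1 and Cdh5 had levels between 13.86 and 14.03 on the log2 scale on all 6 arrays.

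In ECs from shTNC lungs, none of the measured complement genes passed the test. C1qa averaged 8.66 in shControl and 8.54 in shTNC on the log2 scale, C1qc averaged 7.55 and 7.56, and Cfb 11.18 and 11.33. What stood out was the spread between shTNC arrays. On all 5 probe sets of C1q, shTNC replicate 1 was the highest and shTNC replicate 2 the lowest of the 6 arrays, so that both extremes lay in the same group. Across all probe sets no adjusted p in limma fell under 0.05 (0 of 45101, or 0%), and 0 of the 7 complement probe sets did. At an unadjusted p under 0.05, 0 of 7 were lower, against 6.3% of all probe sets, and 0 of 7 were higher, against 6.66%. The looser thresholds of the study, which add a log2 difference over 0.75 and an adjusted p under 0.25, were met by 0 of 7 and by 0.182% of all probe sets.

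C1qa, C1qb and C1qc lie side by side on chromosome 4, at chr4:136895916-136898844, chr4:136880126-136886200 and chr4:136889801-136892936 in the mouse build GRCm38.p6, and their products assemble together into 1 protein. The bases before the start sites of C1qb and C1qc are shown because these neighboring genes varied together between arrays. RefSeq sequences were held for 2 of the 5 measured genes. The capitals mark GAGGAA, or its reverse complement, the core bound by the myeloid factor PU.1. Each of the sequences, 250 bases up to the start site that the promoter table gives, read in the direction of the gene, holds 1 match. For C1qc that start site lies within the gene's span as given above, so the last bases shown belong to that span. The C1qb match is on the strand of the gene and the C1qc match on the other strand. Such a match was present in 23.3% of the 32851 promoters of the same length, so it is a common string and says nothing on binding. C1qb lies at chr4:136886201-136886450 and C1qc at chr4:136892915-136893164, both on the minus strand.
C1qb: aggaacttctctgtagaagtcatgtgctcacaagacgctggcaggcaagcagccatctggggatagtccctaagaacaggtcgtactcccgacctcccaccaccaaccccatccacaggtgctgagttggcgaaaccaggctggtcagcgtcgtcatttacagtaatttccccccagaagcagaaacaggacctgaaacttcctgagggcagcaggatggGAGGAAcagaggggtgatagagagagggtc
C1qc: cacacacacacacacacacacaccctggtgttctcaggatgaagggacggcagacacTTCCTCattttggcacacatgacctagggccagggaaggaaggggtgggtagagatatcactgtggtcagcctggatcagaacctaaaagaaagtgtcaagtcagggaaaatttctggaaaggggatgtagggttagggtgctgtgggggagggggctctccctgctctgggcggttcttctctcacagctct

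C1qa, which encodes the A chain (probe set 1417381_at), had levels of 8.63, 8.75 and 8.59 in shControl replicates 1, 2 and 3. In shTNC it had 8.83, 7.97 and 8.81. The shControl arrays lay close together, while shTNC replicates 1 and 3 were above all of them and shTNC replicate 2 was far below, so the groups overlapped. On the log2 scale shTNC minus shControl was -0.12 ± 0.22 (SE, n = 3 per group), with a 95% interval from -0.62 to 0.37 and a limma adjusted p of 0.85. Without shTNC replicate 2 the difference turned to 0.16 ± 0.11.

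C1qb, which encodes the B chain, was read by 3 probe sets that all had a higher mean in shTNC. On 1434366_x_at the levels were 7.29, 7.80 and 7.96 in shControl and 8.53, 7.27 and 8.12 in shTNC. On 1417063_at they were 7.50, 7.98 and 7.38 in shControl and 8.18, 7.30 and 7.92 in shTNC. Both show shTNC replicate 2 below every shControl array. The third, 1437726_x_at, lay near background, with 6.42, 6.69 and 6.87 in shControl and 7.59, 6.41 and 7.25 in shTNC. Background here is a level of 7.48, which 95% of the 43 probe sets of olfactory receptors did not exceed, and 67.1% of all probe sets were above it. On 1434366_x_at shControl replicate 1 and shTNC replicate 2 also lay under this level, as did shControl replicate 3 and shTNC replicate 2 on 1417063_at. The differences on the 3 probe sets were 0.29 ± 0.31, 0.18 ± 0.24 and 0.42 ± 0.27 (SE, n = 3 per group), with limma adjusted p of 0.72, 0.78 and 0.54. The interval of the first ran from -0.42 to 0.99, so it holds a fall as well as a rise. Probe sets whose names end in _x_at can also bind transcripts of other genes.

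C1qc, which encodes the C chain (1449401_at), had levels of 7.62, 7.71 and 7.33 in shControl and 7.77, 7.27 and 7.66 in shTNC. The arrays straddled the background level in both groups. The difference was 0.0090 ± 0.15 (SE, n = 3 per group), with a 95% interval from -0.35 to 0.36 and a limma adjusted p of 0.99. Its sign turned when shControl replicate 3, shTNC replicate 1 or shTNC replicate 3 was left out.

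Cfb, which encodes the serine protease of the alternative pathway convertase (1417314_at, at chr17:34856374-34862514), was well above background and had the most even values. Its levels were 11.10, 11.27 and 11.17 in shControl and 11.38, 11.26 and 11.35 in shTNC. The groups overlapped only through shControl replicate 2, which lay just above shTNC replicate 2. The difference was 0.15 ± 0.09 (SE, n = 3 per group), a 1.11-fold higher mean in shTNC, with a 95% interval from -0.05 to 0.36 and a limma adjusted p of 0.50. It stayed between 0.11 and 0.20 when any 1 array was left out. The interval holds no fall of Cfb larger than 0.05 on the log2 scale.

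Cfi, which encodes factor I (1418724_at, at chr3:129836727-129875332), was near background on all arrays. Its levels were 7.10, 7.31 and 6.69 in shControl and 7.02, 7.44 and 7.14 in shTNC, with overlapping groups. The difference was 0.17 ± 0.17 (SE, n = 3 per group), with a limma adjusted p of 0.72, and without shControl replicate 3 it was -0.0061. Unlike C1q, Cfi was highest in shTNC replicate 2.

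**Figure D1:**
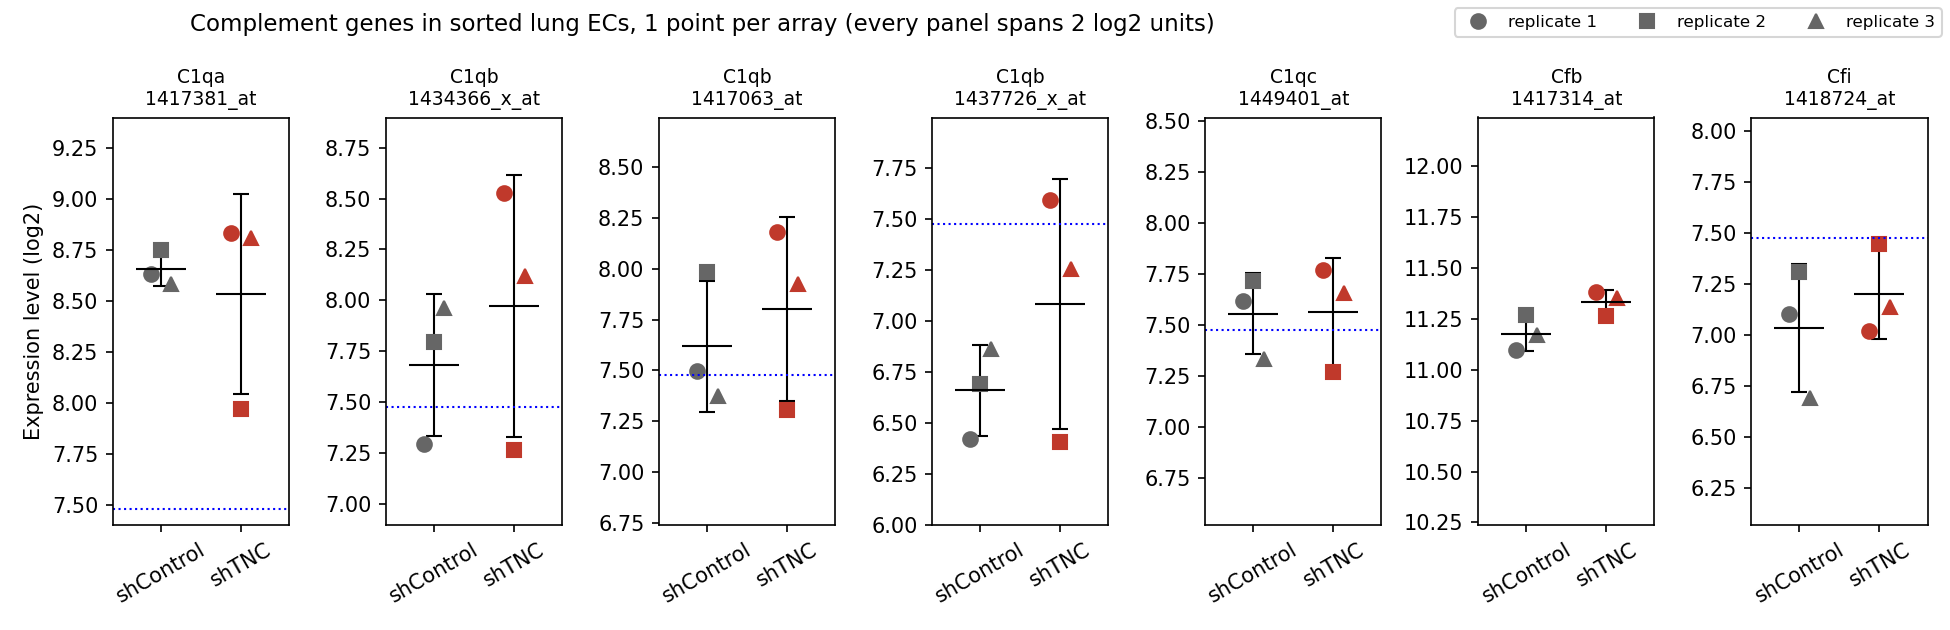
Expression level (log2, y axis) of the 7 complement probe sets in sorted lung ECs, with 1 point per array, marker shape for the replicate number and a bar for the group mean ± SD (n = 3); the dotted line is the background level of 7.48, drawn where it falls in the panel. On each of the 5 C1q panels shTNC replicate 1 is the highest and shTNC replicate 2 the lowest array, while Cfb stays between 11.10 and 11.38.

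The groups overlapped on all 7 probe sets. Over all probe sets, 10.5% had groups apart with shTNC lower and 8.92% with shTNC higher. Exact two-sided permutation tests of the single probe sets gave p between 0.2 for Cfb and 1 for C1qa and C1qc, where the smallest p that 3 against 3 arrays allow is 0.1. Of the 5 measured genes, C1qa, C1qb, Cfb and Cfi belong to GSP58, the genes of secreted proteins that the study selected on other arrays as induced in metastasis-associated ECs. None of these 4 passed the test in either direction here. C1qa had a lower mean in shTNC, and C1qb, Cfb and Cfi had a higher one. For GSP58 as a whole, the study reported lower expression of most genes in ECs with TNC knockdown. The study showed this as a heatmap of the genes and as z-scores of the full set, both unlike the tests of single probe sets given here. By qPCR it also reported TNC-dependent induction of Inhbb, Lama1, Scgb3a1 and Opg, which are not among the genes read here.

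The members differed in their spread within groups. The pooled SD within groups was 0.35 for C1qa, 0.23 for C1qc and 0.39 to 0.52 on the C1qb probe sets, against a median of 0.14 over all probe sets. Among all probe sets these SDs lay between the 97.0th and the 99.6th percentile, with C1qc at the 85.0th. Cfi, with 0.27, lay at the 91.1th percentile, above C1qc. Cfb had a pooled SD of 0.075, a smaller spread than that of the median probe set. The mean over the 5 C1q probe sets was 7.49, 7.79 and 7.62 on the shControl arrays, and 8.18, 7.24 and 7.95 on the shTNC arrays. The gap between shTNC replicates 1 and 2 was thus larger than the whole range of the shControl arrays.

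**Figure D2:**
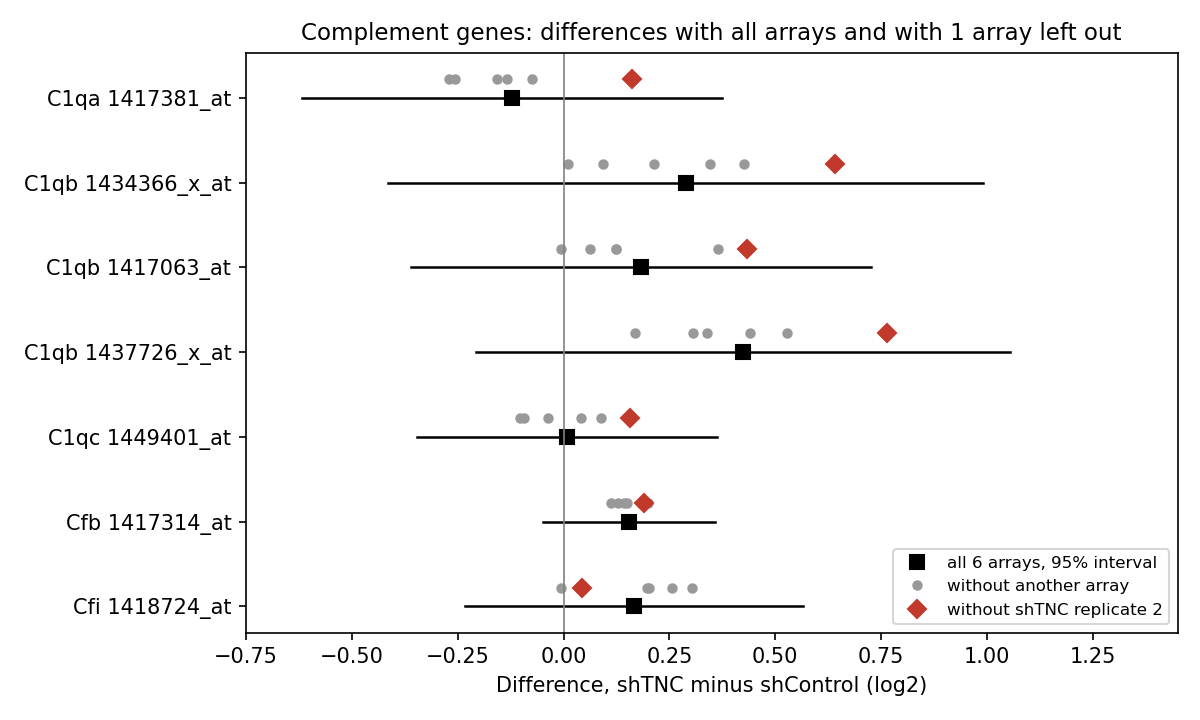
Difference of shTNC minus shControl (log2, x axis) for each complement probe set, with all 6 arrays and its 95% interval from limma (squares and bars), and with 1 array left out (diamonds for shTNC replicate 2, circles for each other array). Every interval includes 0, and without shTNC replicate 2 all C1q differences are above 0, from 0.16 to 0.76.

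On each of the 5 C1q probe sets, leaving out shTNC replicate 2 moved the difference more than leaving out any other array. Without it C1qb differed by 0.64 ± 0.21 (SE) on 1434366_x_at, by 0.43 ± 0.19 on 1417063_at and by 0.76 ± 0.17 on the dim 1437726_x_at, with limma adjusted p of 0.48, 0.54 and 0.41. The first and the third had an unadjusted p under 0.05, which no C1q probe set had with all 6 arrays. C1qc was at 0.16 ± 0.14. No label sets this array apart, so the values with all arrays stand as the result. On the first principal component another array, shControl replicate 2, stood apart, at -43.6 against -11.1 to 21.1 for the other 5, and without it the C1qb differences were 0.34, 0.36 and 0.44 on 1434366_x_at, 1417063_at and 1437726_x_at.

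Markers of other cells were read beside C1q, since sorted fractions can hold some of them. In bulk samples fewer cells of a type cannot be told apart from less RNA per cell. Macrophage markers, of which 18 of 23 were above background, had mean levels of 8.79, 8.77 and 8.72 in shControl and of 8.68, 8.51 and 8.73 in shTNC. As with C1q, shTNC replicate 2 was the lowest array, but shTNC replicate 1, the highest for C1q, lay below every shControl array. In this list an unadjusted p under 0.05 was met by 5 of 23 genes that were lower and 1 that was higher, against 7.12% and 4.54% of all genes read by 1 probe set each, and 0 had an adjusted p under 0.05. The mannose receptor gene Mrc1 had levels of 10.47, 10.19 and 10.07 in shControl and 9.75, 9.76 and 9.38 in shTNC, which gives a difference of -0.62 ± 0.14 (SE, n = 3 per group, limma adjusted p 0.22). Cd14, which encodes a coreceptor for bacterial lipids, had 10.85, 10.76 and 10.63 against 10.52, 10.38 and 10.36, a difference of -0.32 ± 0.10 (adjusted p 0.27). Both genes were named for a small p and had groups that did not overlap. They therefore could not show the order of arrays seen for C1q, with both extremes in shTNC, and say nothing on whether macrophage genes share it. The chitinase-like Chil3 differed by -0.69 ± 0.21 and the folate receptor gene Folr2 by -0.44 ± 0.15. The other two with an unadjusted p under 0.05, named after their values were seen, were Cx3cr1, a chemokine receptor gene, at -0.45 ± 0.19, and Tyrobp, a signaling adaptor gene and the higher one, at 0.31 ± 0.11. The pan-leukocyte gene Ptprc, which encodes CD45, differed by 0.32 ± 0.25, and Adgre1, which encodes F4/80, and Itgam, which encodes CD11b, were near background. Some markers, also named after their values were seen, shared part of the C1q order. Lyz2, Ctss, Fcer1g and Fcgr1 were lowest in shTNC replicate 2, but none of them was highest in shTNC replicate 1. Tyrobp was highest in shTNC replicate 1 but lowest in shControl replicate 2. Others differed from it, as Cd68 was lowest in shTNC replicate 1.

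Mesothelial markers, 5 of 8 above background, had on average the same highest and lowest arrays as C1q. Their mean levels were 7.73, 7.77 and 7.84 in shControl and 8.82, 7.66 and 8.30 in shTNC, again with shTNC replicate 1 highest, replicate 3 next and replicate 2 lowest. Msln, which encodes mesothelin, had levels of 7.28, 7.47 and 7.66 in shControl and 9.07, 7.29 and 8.53 in shTNC, which gives a difference of 0.83 ± 0.38 (SE, n = 3 per group, limma adjusted p 0.41). Gpm6a, a membrane glycoprotein gene, differed by 0.76 ± 0.24, and 1 of 8 genes in the list, Gpm6a, was higher with an unadjusted p under 0.05 and 0 were lower. The lowest array of the mean was not that of both genes. Msln was lowest in shControl replicate 1, just below shTNC replicate 2, and Gpm6a in shControl replicate 2, at 8.56 against 9.51 in shTNC replicate 2. Epithelial markers, 10 of 12 above background, were also lowest in shTNC replicate 2, at 8.35, with 9.15 and 9.63 on the other shTNC arrays and 8.61 to 9.32 in shControl. Of the 12, the ciliated cell gene Foxj1, near background, was lower with an unadjusted p under 0.05 and 0 were higher. Epcam itself differed by -0.06 ± 0.14. The bright surfactant gene Sftpc, named after its values were seen, had 13.01, 12.95 and 13.41 in shControl and 13.16, 12.09 and 13.46 in shTNC. Not every marker was lowest in shTNC replicate 2, as the secretoglobin gene Scgb1a1 and the keratin gene Krt8 were lowest in shControl replicate 1.

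Fibroblast markers, all 16 above background, were highest in shTNC replicate 3, at 10.23, and lowest in shControl replicate 3, at 9.50, with Pdgfra and Pdgfrb, the genes of CD140a and CD140b, at -0.01 ± 0.25 and -0.01 ± 0.17 (SE). In this list 7 genes had a lower and 9 a higher mean in shTNC, and 1 of 16, the matrix gene Mfap4, was higher with an unadjusted p under 0.05, by 0.74 ± 0.32 (limma adjusted p 0.38). Neutrophil markers, 5 of 9 above background, lay between 7.59 and 7.73 in shControl and between 7.52 and 7.84 in shTNC, again lowest in shTNC replicate 2, and 1 of 9, the elastase gene Elane, near background, was lower with an unadjusted p under 0.05. Adipocyte markers, 2 of 6 above background, lay between 7.15 and 7.24 and between 7.10 and 7.17. Pan-endothelial markers, all 10 above background, lay between 13.50 and 13.58 on the shControl arrays and between 13.51 and 13.53 on the shTNC arrays. The part of any of these cells in the C1q values was not tested.

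**Figure D3:**
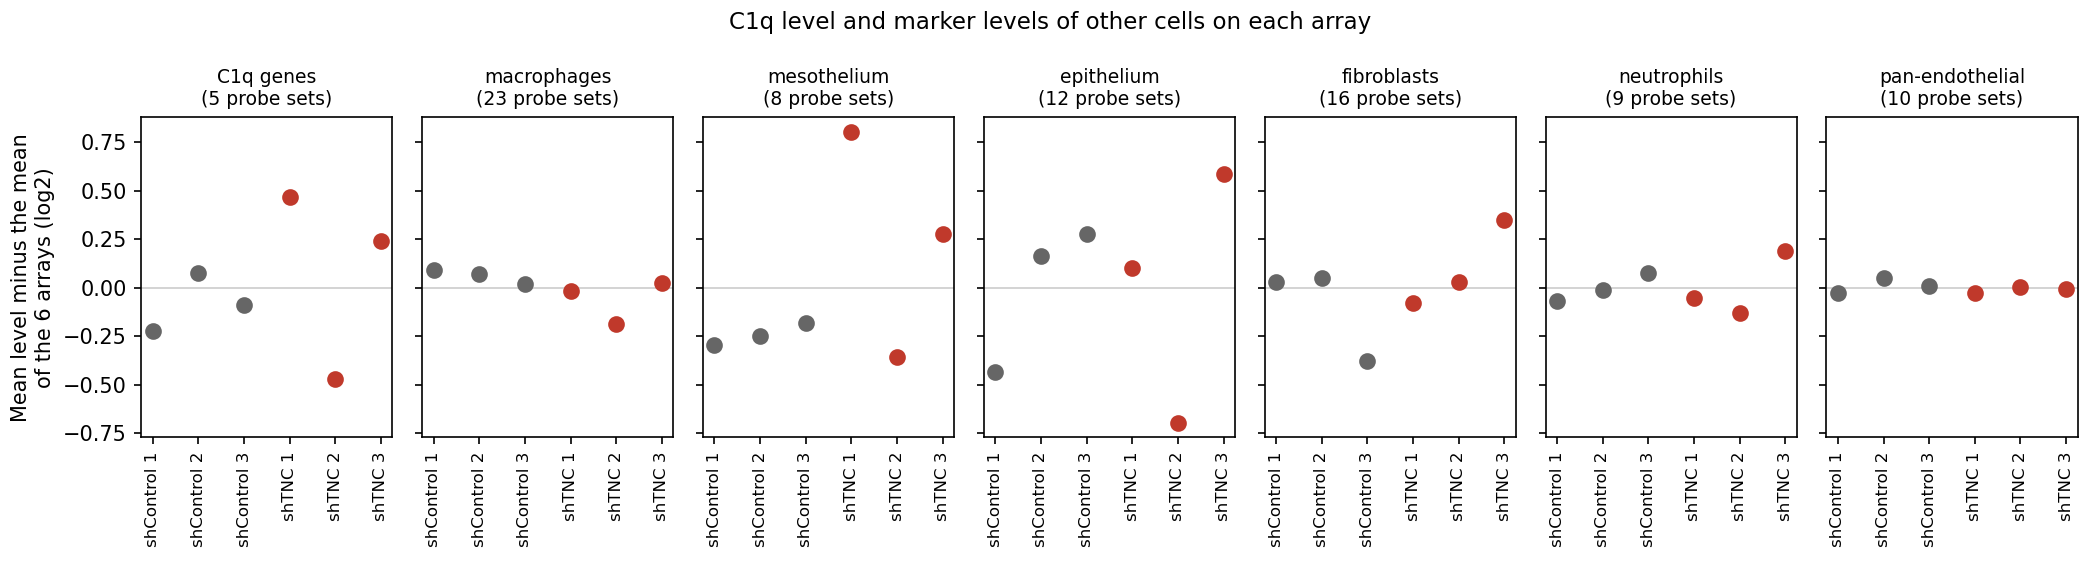
Mean log2 level on each array minus the mean of the 6 arrays (y axis), for the 5 C1q probe sets and for the matched markers of 6 cell types, with shControl arrays in grey and shTNC arrays in red. The C1q, macrophage, mesothelial, epithelial and neutrophil panels all have their lowest point in shTNC replicate 2, whereas pan-endothelial markers hardly differ between arrays.

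The genes whose levels over the 6 arrays were most like the mean of C1qa, C1qb and C1qc, among 13432 genes above background, were Rbmxl1, Pi4ka, AB124611, Trmt1l and Rrnad1, with Pearson correlations of 0.99, 0.98, 0.98, 0.97 and 0.97. Only AB124611 among them had a wide spread, with an SD of 0.32 over the arrays, while that of Rbmxl1 was 0.037. With 6 arrays this likeness is a description, and 36 genes had a correlation over 0.9.

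The wider complement system was read through 41 matched genes of 47 listed, 27 of them above background. Of the 41, each read by its brightest probe set, 5 were lower in shTNC and 2 higher with an unadjusted p under 0.05. The shares of all genes were 7.12% and 4.54%, and none of the 41 had an adjusted p under 0.05 in limma. Their median difference was -0.03 on the log2 scale, the same as the -0.03 of all genes. Dimmer probe sets of Cfp and Cd93, above background and outside this count, were higher with an unadjusted p under 0.05, so the count depends on the probe set chosen. The count of lower genes was 2 without shControl replicate 2 and 3 without shTNC replicate 1 or shTNC replicate 3, and the count of higher genes was 1 without shControl replicate 3.

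Among genes of the classical and lectin pathways, C1ra, which encodes the protease C1r that C1q activates, had levels of 10.22, 10.35 and 9.996 in shControl and 10.67, 10.49 and 10.36 in shTNC. The groups did not overlap, although shControl replicate 2 and shTNC replicate 3 were nearly level, and the difference was 0.32 ± 0.12 (SE, n = 3 per group, limma adjusted p 0.34). Its unadjusted p rose over 0.05 when any of 4 arrays was left out, with the lowest difference, 0.22, without shControl replicate 3. Fcnb, which encodes a ficolin of the lectin pathway, had levels of 7.92, 8.00 and 7.81 in shControl and 7.48, 7.63 and 7.63 in shTNC, all shTNC arrays being lower, with a difference of -0.33 ± 0.09 (adjusted p 0.26). Colec10, which encodes a liver collectin, differed by 0.52 ± 0.11 (adjusted p 0.20) at levels near background. The lectin pathway genes Masp1 and Masp2, which encode proteases, and Colec12, a scavenger collectin gene, differed by -0.14 ± 0.15, 0.06 ± 0.11 and 0.17 ± 0.13, and the probe sets of Masp1 above background disagreed in sign.

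Among later steps, C8b and C9, which encode parts of the membrane attack complex, differed by -0.33 ± 0.12 and -0.26 ± 0.09 (SE, n = 3 per group, limma adjusted p 0.31 for both). C8b had levels of 8.10, 8.49 and 8.23 in shControl and 8.01, 7.99 and 7.86 in shTNC, without overlap, and C9 lay near background. Leaving out shControl replicate 2 moved them to -0.22 and -0.21, and both also had an unadjusted p over 0.05 without shTNC replicate 3, as did C9 without shTNC replicate 1. C6, another part of that complex, differed by 0.50 ± 0.26, with its highest level, 9.58, in shTNC replicate 3. Cfp, which encodes properdin, the stabilizer of the alternative pathway convertase, differed by -0.25 ± 0.14 on its brightest probe set and by 0.25 ± 0.10 on the other, so it gave no direction, and C8g differed by -0.03 ± 0.14.

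Regulators shield host cells from complement. None of the 13 matched, 9 of them above background, had an unadjusted p under 0.05 in either direction. Cr1l, the rodent convertase inhibitor Crry, averaged 13.12 in shControl and 13.08 in shTNC, which gives a difference of -0.04 ± 0.09 (SE, n = 3 per group), although a dimmer probe set above background had the opposite sign. Thbd, which encodes thrombomodulin, had 13.41, 13.39 and 13.36 against 13.56, 13.43 and 13.50. All shTNC arrays were higher, but the difference of 0.11 ± 0.08 gave a limma adjusted p of 0.62. Serping1, which encodes the C1 inhibitor, differed by 0.27 ± 0.16, and Clu, which encodes clusterin, an inhibitor of the attack complex, by -0.17 ± 0.09 with groups that did not overlap, but 1 of its 4 probe sets had the opposite sign.

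**Figure D4:**
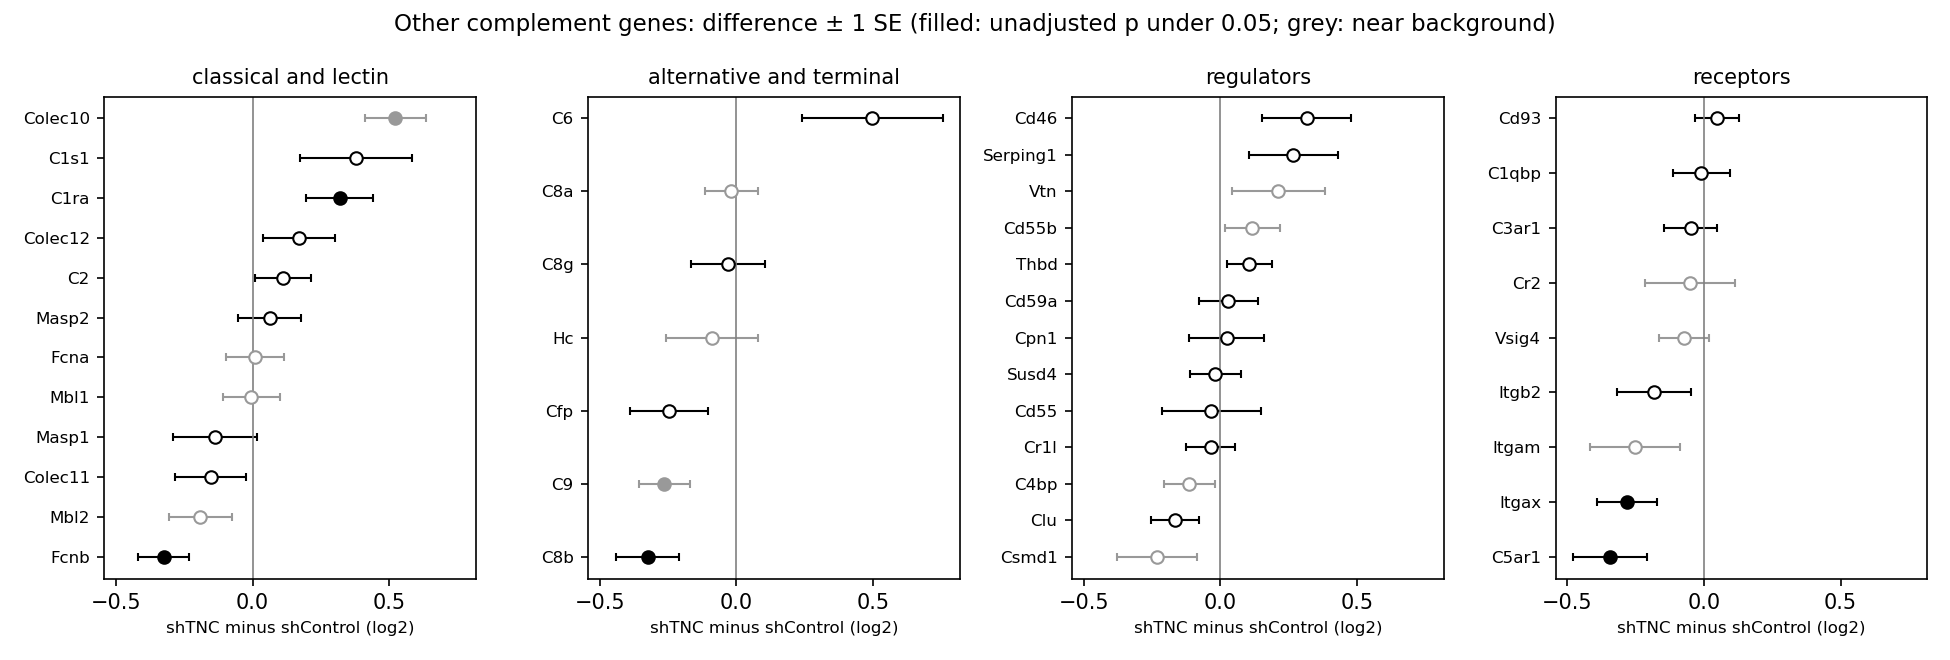
Difference of shTNC minus shControl (log2, x axis) for 41 further complement genes by role, where bars span ± 1 SE of the limma fit (n = 3 in each group), filled where the unadjusted p was under 0.05 and grey where the gene was near background. Filled points are C1ra and Colec10 on the higher side and Fcnb, C8b, C9, Itgax and C5ar1 on the lower side.

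Of 9 receptor genes, 6 above background, 8 had a lower mean in shTNC, as had 10602 of all 18194 genes, and their median difference was -0.07 on the log2 scale. C5ar1, which encodes the receptor of the C5a fragment on myeloid cells, had levels of 8.08, 8.55 and 8.07 in shControl and 7.92, 7.89 and 7.85 in shTNC. The groups did not overlap, and the difference was -0.34 ± 0.14 (SE, n = 3 per group, limma adjusted p 0.35), or -0.19 without shControl replicate 2, its highest array. Its unadjusted p was over 0.05 without that array or any of the shTNC arrays. Itgax, which encodes the CD11c chain of complement receptor 4, differed by -0.28 ± 0.11 (adjusted p 0.35), or -0.18 without shControl replicate 1, and its unadjusted p was over 0.05 without that array, without shTNC replicate 1 or 2, and with all arrays under an intensity trend and robust eBayes. Itgb2, which encodes the shared chain of the leukocyte integrins, differed by -0.18 ± 0.13. Both C5ar1 and Itgax are also genes of myeloid cells, whose markers are given above. Cd93, a bright endothelial gene once named as a C1q receptor, differed by 0.05 ± 0.08 on its brightest probe set, with others above background at 0.21 ± 0.08, -0.20 ± 0.09 and 0.17 ± 0.10, which disagreed in sign. C1qbp, which encodes a mitochondrial protein that can bind C1q, differed by -0.01 ± 0.10.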

How the data were processed

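Lung ECs of 3 shControl and 3 shTNC samples were profiled on Affymetrix Mouse Genome arrays, with 1 array each. The authors normalized the raw files by RMA in Chipster, and the deposited values are log2 levels per probe set. Per the labels, the samples are biological replicates. How many mice each holds is not given in the sources used here. Probe sets were named by the platform annotation, and members were taken where it gave 1 symbol.

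All 45101 probe sets were compared by the two-sided moderated test of limma 3.58.1 (R 4.3.3), and p-values were adjusted over all of them by Benjamini-Hochberg. Differences are shTNC minus shControl. Lists used the brightest single-symbol probe set of each gene, and list levels are means of log2 values. Of the wider genes, 5 (Masp1, Cfp, Cr1l, Clu and Cd93) had probe sets above background that disagreed in direction. The members and lists were chosen with earlier results of these data known. Named were all members, wider complement genes with an unadjusted p under 0.05 or the 4 brightest of a role, up to 4 markers of a list with the smallest p, and genes of the sort. Some further markers were named after their values were seen. The alternatives were other normalizations, a background filter, variance models, array weights, probe set choices, a replicate block and leaving out each array. The number of arrays limits the precision.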

Additional observations from a re-analysis of the deposited data

How the results depend on the processing

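The counts of 0 complement probe sets lower at an unadjusted p under 0.05 and of 0 past an adjusted p of 0.05 held under every alternative tried. Leaving out 1 array gave 0 to 2 higher, the 2 coming without shTNC replicate 2, 2 to 6 wider complement genes lower and 1 to 3 higher, and 1 gene was higher without probe sets near background. Over all probe sets, 0 to 4 passed an adjusted p of 0.05 with 1 array left out, 9 with an intensity trend and robust eBayes, and 1 with either 1 probe set per gene or the mean of a gene's probe sets, where 2387 and 2357 had an unadjusted p under 0.05 among fewer features. Under the intensity trend and robust eBayes Itgax had an unadjusted p of 0.062. The sign turned for C1qa (-0.27 to 0.16 over arrays left out), C1qb on 1417063_at (-0.0053 to 0.43), C1qc (-0.10 to 0.16, and -0.017 with array weights) and Cfi (-0.0061 to 0.30). The cause was not tested. The labels give both groups replicate numbers 1 to 3. Deviations of same-numbered arrays correlated at -0.11, 0.038 and 0.14, so no strong shared deviation was seen. With 3 arrays per group this cannot show whether the samples were handled in pairs. With the replicate block 5737 probe sets had an unadjusted p under 0.05, 0 of them complement members, with 6 wider genes lower and 2 higher. C1qc, Cfi and every C1qb probe set lay under background on some or all arrays, shTNC replicate 2 among them, which limits what their values can show.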
